A study of Mus musculus with 15 samples.

Results

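Osteopontin, a secreted matrix phosphoprotein encoded by *Spp1*, and the receptors that cells use to bind it were followed in 21EM15 cells, a mouse lens epithelial line. A list of 9 gene symbols held the ligand *Spp1*, the receptor *Cd44* and the integrin chains *Itgav*, *Itga3*, *Itga5*, *Itga6*, *Itga9*, *Itgb1* and *Itgb5*. The rule for the list uses no measured value. Of the 9 symbols 8 were matched in the culture table and in the region table, out of 11041 genes that the tables share. *Itga9* was not matched and is not analysed here.

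The 3′ ends of transcripts had been sequenced, and 15 samples of this cell line, all labelled WT, are analysed here. They comprised 4 samples of flat cultures on plastic dishes (2D), 4 of spheroids grown in non-adherent round-bottom wells (3D), 4 of the internal region of spheroids and 3 of their external region, the regions being cut out by laser capture microdissection. Per the study's methods, each 2D sample came from its own dish and each spheroid or region sample from a pool of spheroids. Dishes were harvested short of full confluence, a state they usually reach in fewer days than the spheroids were cultured. Time in culture and cell density thus differed along with the growth form. The methods do not say whether an internal and an external sample shared spheroids, and with a single cell line the p-values measure only the spread between its cultures. The 3 external samples are those the authors retained after a principal component analysis, in which a further external sample lay apart and was set aside, so the external spread, and every p-value that rests on it, comes after that choice. RNA was extracted with the Nucleospin kit from cultures and with the PicoPure kit from regions, and the tables of cultures and regions were normalised separately, so each comparison was made within a table.

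The libraries held 7305053 to 9362587 reads in 2D, 7727642 to 8364276 in 3D, 4256391 to 11702504 in the internal region and 4044230 to 6086089 in the external region. The member with the fewest reads, *Itga5*, still had 78 to 389 reads in a sample. Levels are given as log2 CPM, the log2 of a gene's reads scaled to a common library size. A read here marks the 3′ end of a transcript, so reads do not grow with transcript length and levels of different genes are set side by side below. The levels and shares of *Itga6* and *Itgb5* are less certain, since uniquely mapped reads were counted. A stretch near the end of a transcript is shared with 8 other genes for *Itga6* and with 1 for *Itgb5*. *Spp1* shares such a stretch with 1 gene model that overlaps it on the same strand, which is not a copy elsewhere. Its effect on the reads counted for *Spp1* was not tested.

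Of 9 genes listed as lens epithelial markers 7 were matched, with a summed level of 1810 to 2280 CPM in 3D and 1220 to 1750 CPM in 2D, and of 2380 to 2510 CPM in the internal and 1490 to 1620 CPM in the external region. *Foxe3* and *Cdh1* (E-cadherin) were not matched. The paper likewise reports no detectable labelling of either protein in the outermost cells, which it proposes are not fully like lens epithelium. At a limma adjusted p under 0.05, *Pax6* (log2 fold change 0.69), *Six3* (0.48) and *Maf* (1.11) were higher and *Cdh2* (-0.68) lower in 3D. In the internal region *Pax6* (0.65), *Prox1* (1.45), *Maf* (1.25), *Crim1* (0.77) and *Cryab* (0.43) were higher, the last 4 being genes that lens fiber cells express as well, while *Six3* and *Cdh2* did not pass. The markers of macrophages, cells known for strong *Spp1* expression, were few: 1 of 10 was matched in cultures, *Cd68*, near the detection limit at 0.383 to 1.17 CPM in 3D and 0.624 to 1.64 CPM in 2D, and 2 of 10 in regions, *Cd68* and *Csf1r*, with a summed level of 2.06 to 8.20 CPM in the internal and 0.165 to 10.0 CPM in the external region. None of 6 endothelial markers was matched, and of 6 osteoblast markers *Runx2* alone was, at 5.42 log2 CPM in 3D and 5.32 in 2D. Of 8 other lens fiber markers none was matched in cultures and 1 in regions, at 0 to 4.35 CPM. Of 8 fibroblast markers 7 were matched in cultures with a summed level of 677 to 1070 CPM in 3D and 79.4 to 258 CPM in 2D, and 6 in regions with 879 to 1120 CPM in the internal and 283 to 710 CPM in the external region. In 3D *Dcn*, *Postn*, *Thy1* and *Col3a1* of this list passed higher and the other 3 did not pass, with a median log2 fold change of 2.49 over the list. In the internal region *Postn* (2.73) and *Col3a1* (1.59) passed higher, *Col1a1* (-1.56) passed lower and the other 3 did not pass, with a median of 0.10 over the list. Markers of both lists thus moved with the groups, and their part in the results below was not tested. In bulk RNA of this kind, fewer cells of a type and less RNA per cell cannot be told apart.

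Integrins are pairs of an alpha and a beta chain that cross the membrane and tie the matrix outside to the actin cytoskeleton inside. Osteopontin holds an arginine-glycine-aspartate (RGD) motif read by integrins with the αv chain and by α5β1, next to a cryptic site read by α4 and α9 integrins, and it can also bind CD44, the main hyaluronan receptor. The α3 and α6 chains pair with β1 in laminin receptors, which in the lens hold epithelial cells on the laminin-rich capsule, and osteopontin is known for its induction in lens epithelial cells after injury.

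The stretch of *Spp1* that the integrins read is shown because it joins the ligand to the receptor chains. It lies on chr5:104439457-104439525 (GRCm38, plus strand), in exon 6 of 7 of ENSMUST00000031243, and is entirely coding. It was read from the GENCODE vM21 transcripts, where 5 of 7 *Spp1* transcripts hold these 69 bases in full.
Spp1 coding stretch: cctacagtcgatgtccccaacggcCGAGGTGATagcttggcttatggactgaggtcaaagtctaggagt
The capitals mark the 3 codons of the RGD motif, and the codons directly after them spell the cryptic site (SLAYGLR). The reads counted for *Spp1* mark the 3′ ends of transcripts and do not tell which part of the protein a cell makes.

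The upstream sequences of *Spp1* and *Itgb5* are shown because these are the members that rose together in 3D. Each runs from 250 bases before the annotated start to the start (RefSeq, GRCm38.p6, plus strand). A row was found for 7 of the 8 members.
Spp1 upstream, chr5:104434861-104435110: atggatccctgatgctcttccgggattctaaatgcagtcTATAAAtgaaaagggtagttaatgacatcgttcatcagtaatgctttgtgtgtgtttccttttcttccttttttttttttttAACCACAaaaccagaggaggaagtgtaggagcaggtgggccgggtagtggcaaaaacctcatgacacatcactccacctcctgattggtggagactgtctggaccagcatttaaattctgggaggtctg
Itgb5 upstream, chr16:33829415-33829664: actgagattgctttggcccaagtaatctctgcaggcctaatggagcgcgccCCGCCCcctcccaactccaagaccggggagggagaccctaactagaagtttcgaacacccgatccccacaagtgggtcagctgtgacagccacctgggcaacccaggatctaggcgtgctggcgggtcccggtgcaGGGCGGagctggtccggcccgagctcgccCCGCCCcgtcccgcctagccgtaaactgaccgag
Capitals mark every match, on either strand, to 5 motifs: the TATA box (TATAAA), the GC box (GGGCGG), the AP-1 site (TGACTCA), the RUNX site (AACCACA) and the E-box (CACGTG). No matches overlap. Upstream of *Spp1* there was 1 TATA box match, beginning 211 bases before the start, and 1 RUNX match, beginning 129 bases before it. Upstream of *Itgb5* there were 3 GC box matches, beginning 199, 63 and 34 bases before the start. The sequences hold none of the same motifs, and their GC content was 43.6% for *Spp1* and 65.2% for *Itgb5*, beside a median of 52.4% over all 32851 upstream sequences. Of these, 12.4% hold the TATA box, 32.7% the GC box, 4.46% the AP-1 site, 4.40% the RUNX site and 6.02% the E-box. A second annotated start of *Spp1*, chr5:104435942-104436191 upstream, held no match to any of the 5.

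Positions of the members that the results turn on are those of GENCODE vM21 (GRCm38). *Spp1* (ENSMUSG00000029304) spans chr5:104435118-104441050 on the plus strand, *Itgb5* (ENSMUSG00000022817) chr16:33829665-33949338 on the plus strand and *Itga3* (ENSMUSG00000001507) chr11:95044474-95076801 on the minus strand.

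*Spp1* was the most abundant member in every group. It stood at 10.01 ± 0.60 log2 CPM in 2D (SD, n = 4) and 11.79 ± 0.16 in 3D (SD, n = 4), the latter being rank 25 among all genes of the table, and at 10.48 ± 0.58 in the external (SD, n = 3) and 10.85 ± 0.24 in the internal region (SD, n = 4). *Itgb1*, the beta chain shared by most matrix receptors, came next in every group, at 9.17 ± 0.42 in 2D, 9.39 ± 0.24 in 3D, 8.78 ± 0.19 in the external and 8.64 ± 0.24 in the internal region. *Itga5*, the alpha chain of the classical fibronectin receptor, was the lowest member everywhere, between 4.21 and 4.82 log2 CPM on average.

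The order between these ends differed by group. In 2D *Cd44* came after *Itgb1* at 8.64 ± 0.47, then *Itgav* at 7.02 ± 0.26, *Itgb5* at 6.84 ± 0.36, *Itga6* at 6.58 ± 0.84 and *Itga3* at 6.54 ± 0.39, and the ranges of all neighbours overlapped except those of *Cd44* and *Itgav* and those of *Itga3* and *Itga5*. In 3D the same genes followed as *Cd44* at 8.37 ± 0.09, *Itgb5* at 8.05 ± 0.17, *Itgav* at 6.95 ± 0.13, *Itga6* at 6.06 ± 0.29 and *Itga3* at 6.04 ± 0.12, and only the ranges of *Itga6* and *Itga3* overlapped. In the internal region *Itgb5* came after *Itgb1* at 8.25 ± 0.11, ahead of *Itgav* at 7.24 ± 0.24 and *Cd44* at 7.07 ± 0.08, then *Itga3* at 5.72 ± 0.29 and *Itga6* at 5.61 ± 0.18. The ranges of *Itgb1* and *Itgb5*, of *Itgav* and *Cd44* and of *Itga3* and *Itga6* overlapped there. In the external region the order was *Itgb5* at 7.78 ± 0.05, *Cd44* at 7.46 ± 0.06, *Itgav* at 7.30 ± 0.12 and *Itga3* at 7.19 ± 0.33, with an overlap between *Itgav* and *Itga3* only.

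**Figure D1:**
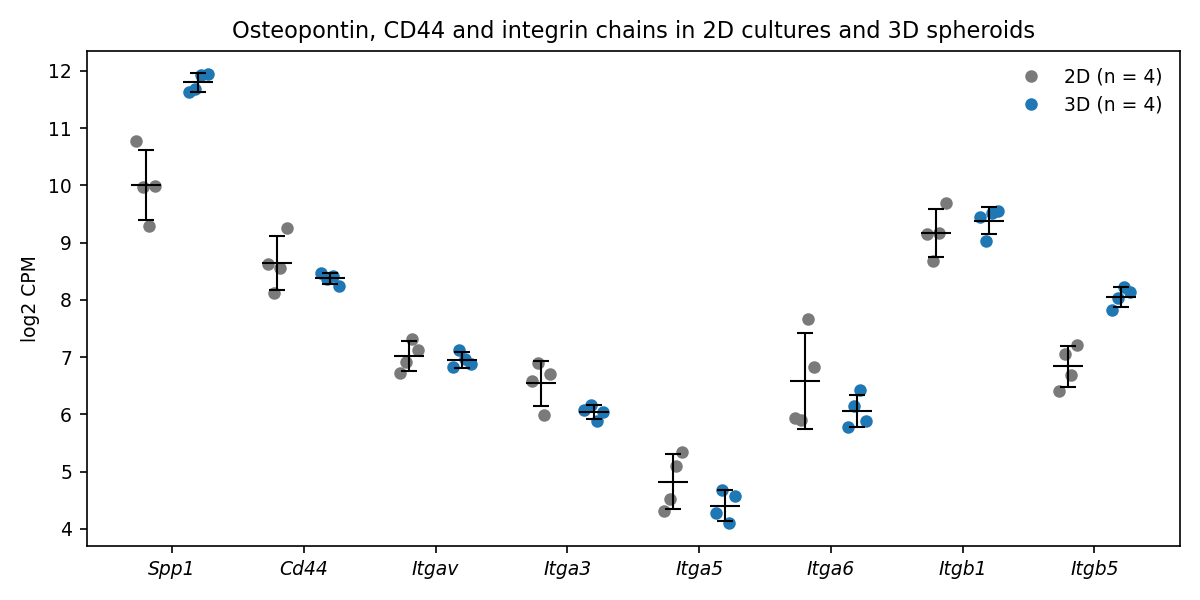
Levels of osteopontin, CD44 and the integrin chains (log2 CPM) in each 2D and 3D sample, with the mean and SD of each group (n = 4). *Spp1* and *Itgb5* are the genes whose 4 3D samples lie above all 4 2D samples.

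The first comparison set spheroids against flat cultures of the line. Growth form, time in culture and cell density differ together here and cannot be told apart. *Spp1* and *Itgb5*, the beta chain that pairs with αv in a vitronectin and osteopontin receptor, rose in 3D, by 3.45-fold and 2.31-fold. No member passed lower. A gene was taken to pass at an adjusted p under 0.05 and was called when the adjusted p was under 0.01 and the log2 fold change over 1 in size (limma on log2 CPM, Benjamini-Hochberg over 11677 genes). Of the 8 members 2 passed higher and 0 lower, and the same 2 were called higher and 0 lower. Over all genes tested, 9.74% passed higher and 9.25% lower, and 2.92% were called higher and 1.51% lower. The median log2 fold change was -0.16 over the 8 members and -0.03 over all genes.

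*Spp1* was at 10.77, 9.98, 9.29 and 9.99 log2 CPM in the 4 2D samples and at 11.63, 11.69, 11.93 and 11.94 in the 4 3D samples. Every 3D sample was above every 2D sample, and the 2D samples were spread more widely than the 3D samples. As plain CPM the 2D samples averaged 1100 ± 467 and the 3D samples 3570 ± 391 (SD, n = 4). A library held 5350 to 16650 *Spp1* reads in 2D and 24849 to 31620 in 3D. The log2 fold change was 1.79 (SE 0.26, 95% confidence interval 1.21 to 2.36, limma adjusted p = 0.00198).

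*Itgb5* was at 6.40, 7.05, 6.69 and 7.21 log2 CPM in 2D and at 7.82, 8.03, 8.22 and 8.13 in 3D. Here too the groups did not overlap. The log2 fold change was 1.21 (SE 0.18, 95% confidence interval 0.81 to 1.61, limma adjusted p = 0.00229). Without 3D replicate 3 or 3D replicate 4 neither gene was called any longer, since the adjusted p came to 0.0109 and 0.0111 for *Spp1* and to 0.0120 and 0.0123 for *Itgb5*, while both still passed. Their log2 fold changes were then 1.74 and 1.74 for *Spp1* and 1.15 and 1.18 for *Itgb5*, and the calls over all genes went from 517 to 161 and 177 in the same fits.

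*Spp1* and *Itgb5* were the 2 members whose groups did not overlap, a pattern seen in 24.0% of all genes of the table. The other 6 members did not pass. The laminin-binding chain *Itga3* came closest, at 6.59, 6.89, 5.99 and 6.71 log2 CPM in 2D and 6.07, 6.16, 5.88 and 6.05 in 3D. Its 2D replicate 3 lay among the 3D samples, and the log2 fold change was -0.51 (SE 0.19, adjusted p = 0.0828 in limma). Without that sample it was -0.69 with an adjusted p of 0.0159, against a range of 0.0159 to 0.194 over 16 alternative fits.

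*Itga6*, the other laminin-binding alpha chain, varied most among the 2D samples, at 5.93, 5.91, 7.67 and 6.82 log2 CPM, against 5.78, 6.14, 6.42 and 5.89 in 3D. The same 2D replicate 3 that was lowest for *Itga3* was highest for *Itga6*. Its log2 fold change was -0.52 (95% confidence interval -1.30 to 0.25). *Itga5* differed by -0.41 (-0.96 to 0.13), *Cd44* by -0.26 (-0.71 to 0.19), *Itgb1* by 0.21 (-0.24 to 0.67) and *Itgav* by -0.07 (-0.39 to 0.26), with adjusted p-values from 0.267 to 0.785 in limma. Single 2D samples moved these values. *Itga6* was at -0.16 without 2D replicate 3, *Itga5* at -0.24 and *Cd44* at -0.06 without 2D replicate 4, *Cd44* at -0.43 without 2D replicate 2, and *Itgb1* at 0.05 without 2D replicate 2 and 0.39 without 2D replicate 4, none of them passing. For *Itgav*, the alpha chain of most RGD receptors, the interval leaves out a change of the size seen for its partner *Itgb5*.

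**Figure D2:**
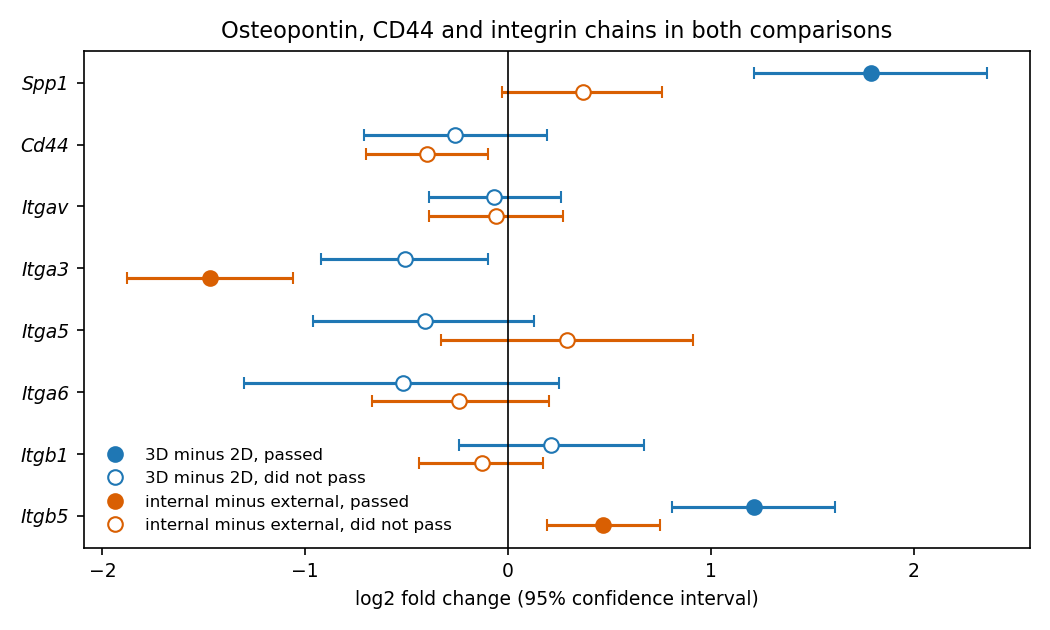
Log2 fold changes with 95% confidence intervals from limma, 3D minus 2D (4 against 4 samples) and internal minus external (4 against 3 samples). Filled points passed at an adjusted p under 0.05: *Spp1* at 1.79 and *Itgb5* at 1.21 in 3D, and *Itga3* at -1.47 and *Itgb5* at 0.47 in the internal region.

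The second comparison asked how the inside of the spheroid differs from its outer layers. *Itga3* was 2.77-fold lower in the internal region, and *Itgb5* was 1.38-fold higher. *Spp1* did not pass. Of the 8 members 1 passed higher and 1 lower, against 9.58% and 12.1% of the 11299 genes tested. Called were 0 members higher and 1 lower, against 3.27% and 4.35% of all genes (limma, adjusted p under 0.01 and log2 fold change over 1 in size). The median log2 fold change was -0.10 over the members and 0.04 over all genes.

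*Itga3*, whose chain makes the α3β1 laminin receptor, was at 5.34, 5.66, 5.94 and 5.97 log2 CPM in the 4 internal samples and at 6.82, 7.31 and 7.45 in the 3 external samples. The groups were far apart, with 0.85 between the highest internal and the lowest external sample. The level was 53.4 ± 10.3 CPM in the internal (SD, n = 4) and 149 ± 32.1 CPM in the external region (SD, n = 3). The log2 fold change was -1.47 (SE 0.20, 95% confidence interval -1.88 to -1.06, limma adjusted p = 8.82e-06). Without a trend of the variance with the level the adjusted p was 0.0114, so that the gene passed but was no longer called, and it ranged from 3.37e-06 to 0.0114 over 14 alternative fits.

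*Itgb5* was at 8.20, 8.14, 8.27 and 8.39 log2 CPM in the internal region and at 7.83, 7.78 and 7.73 in the external region. The groups did not overlap, and the samples of each lay close together. The log2 fold change was 0.47 (SE 0.13, 95% confidence interval 0.19 to 0.75, limma adjusted p = 0.0139). The adjusted p was 0.0850 without a trend of the variance with the level, and it ranged from 0.00299 to 0.0912 over 14 alternative fits.

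*Cd44* was at 7.12, 6.97, 7.03 and 7.14 log2 CPM in the internal region and at 7.52, 7.48 and 7.40 in the external region. Every internal sample was below every external sample, yet the gene did not pass, with a log2 fold change of -0.40 (SE 0.15, 95% confidence interval -0.70 to -0.10, limma adjusted p = 0.0542). With each sample centred on its median the adjusted p was 0.0244, and it ranged from 0.0244 to 0.170 over 14 alternative fits. *Itgb5*, *Itga3* and *Cd44* were the 3 members without overlap, 1 higher and 2 lower, beside 29.0% of all genes.

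*Spp1* was at 10.64, 11.01, 11.09 and 10.64 log2 CPM in the internal and at 11.04, 10.52 and 9.88 in the external region. External replicate 1 lay within the internal range and external replicate 3 below all other samples. The log2 fold change was 0.37 (SE 0.19, 95% confidence interval -0.03 to 0.76, limma adjusted p = 0.180). Which external sample was included decided the value. It was 0.65 without external replicate 1 (adjusted p = 0.0141) and 0.07 without external replicate 3 (adjusted p = 0.838).

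The remaining 4 members did not pass, with adjusted p-values of 0.462 to 0.833 in limma. *Itga5* differed by 0.29 (95% confidence interval -0.33 to 0.91), *Itga6* by -0.24 (-0.67 to 0.20), *Itgb1* by -0.13 (-0.44 to 0.17) and *Itgav* by -0.06 (-0.39 to 0.27). Without external replicate 1 *Itga5* was at 0.05, *Itga6* at -0.12 and *Itgb1* at -0.02, and without external replicate 3 *Itga5* was at 0.52 and *Itga6* at -0.42. *Itgb1* was at -0.24 without internal replicate 3 and at -0.05 without internal replicate 1. None of these passed. *Itgav* was at 7.50, 7.39, 7.01 and 7.06 log2 CPM in the internal region and at 7.35, 7.38 and 7.16 in the external region, so its groups overlapped throughout.

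**Figure D3:**
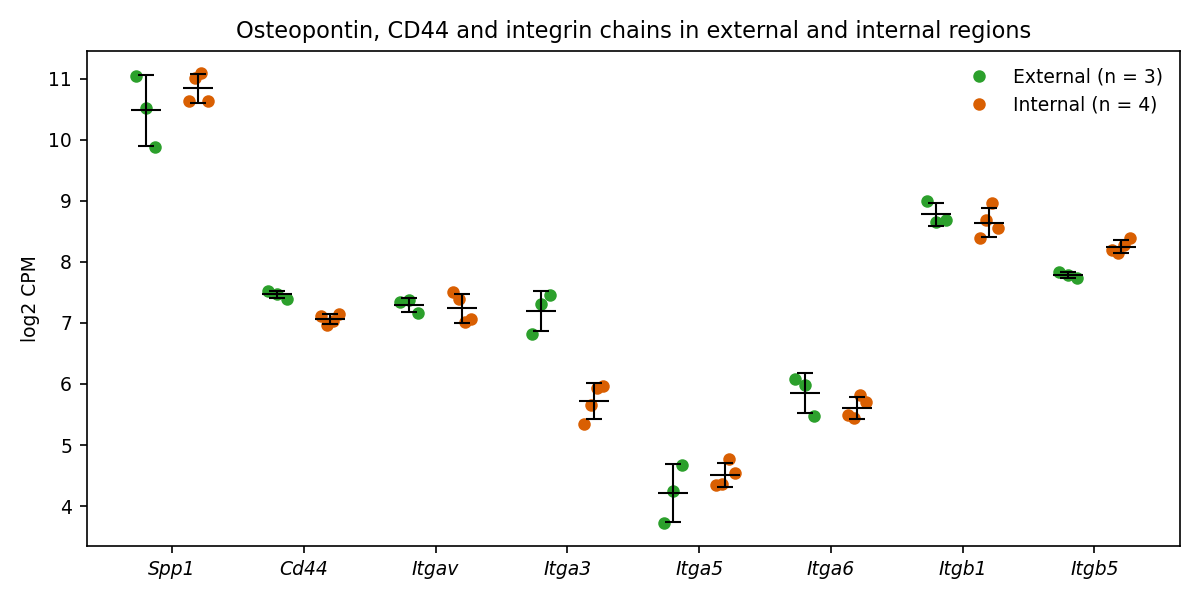
Levels of osteopontin, CD44 and the integrin chains (log2 CPM) in each external (n = 3) and internal (n = 4) sample, with the mean and SD of each group. *Itga3* and *Cd44* lie lower and *Itgb5* higher in all 4 internal samples, while *Spp1* overlaps.

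Since an integrin needs both of its chains, the make-up of the receptor set was described as each chain's share of the reads of all alpha or of all beta chains in the table. Among 6 beta chains in cultures, *Itgb5* took 12.7% to 24.0% of the reads in the 2D samples (median 15.1%) and 24.1%, 32.6%, 28.5% and 26.5% in the 3D samples. The highest 2D sample, replicate 2, came up to the lowest 3D sample. *Itgb1* took most of the rest, 82.1% ± 5.13 (SD, n = 4) in 2D and 70.2% ± 3.80 (SD, n = 4) in 3D. Among 5 beta chains in regions, *Itgb5* took 44.7%, 39.2%, 37.2% and 45.0% in the internal and 29.9%, 34.2% and 33.3% in the external samples.

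Among the 12 alpha chains, *Itgav* held a like share in all groups, 24.9% ± 1.82 (SD, n = 4) in 2D, 25.6% ± 0.528 (SD, n = 4) in 3D, 25.8% ± 0.892 in the external (SD, n = 3) and 27.1% ± 5.35 in the internal region (SD, n = 4). *Itga3* took 18.6%, 24.3% and 30.7% in the external samples and 7.49%, 8.69%, 10.4% and 11.0% in the internal samples. The laminin-binding *Itga6* took 9.52% ± 1.65 in the external (SD, n = 3) and 8.65% ± 0.951 in the internal region (SD, n = 4). Of the chains outside the member list, *Itga1* took 7.98% to 11.1% in the external and 17.4% to 23.4% in the internal samples. *Itga4*, whose chain reads the cryptic site, took 14.1% ± 3.1 in 2D and 15.5% ± 2.63 in 3D (SD, n = 4). In regions it took 9.48% ± 0.998 in the external (SD, n = 3) and 11.7% ± 1.39 in the internal samples (SD, n = 4). All these shares are descriptions and carry no test.

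**Figure D4:**
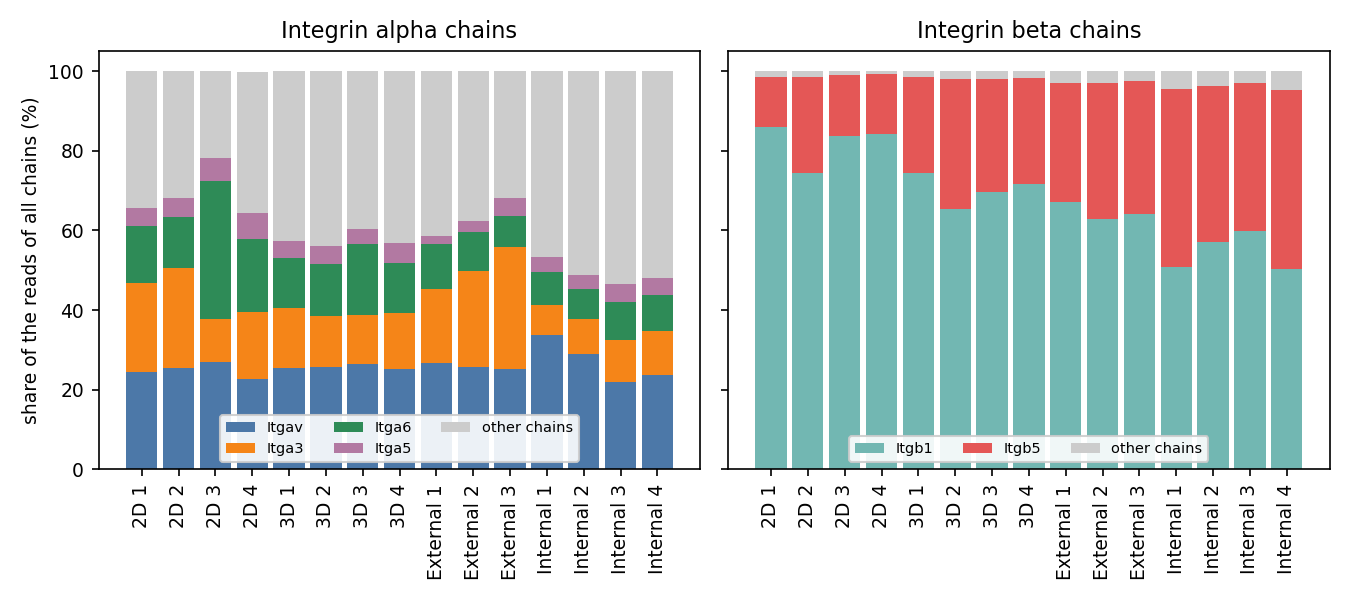
Share (%) of the reads of all integrin alpha chains (left) and beta chains (right) taken by each chain in each of the 15 samples. Grey stands for the other chains of the table. *Itgb5* takes 12.7% to 24.0% of the beta reads in 2D and 24.1% to 32.6% in 3D. In the regions, a separate table, it takes 29.9% to 34.2% in external and 37.2% to 45.0% in internal samples. *Itga3* takes 18.6% to 30.7% of the alpha reads in the external and 7.49% to 11.0% in the internal region. Shares of cultures and regions are not compared with each other.

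Differences between 2 members within a sample, which do not depend on how the samples are scaled, were compared for 6 pairs in both comparisons, 12 exact permutation tests over samples in all (two-sided). The smallest p this allows is 0.0286, and none of the 12 passed after Benjamini-Hochberg adjustment. With this floor an adjusted p under 0.05 needs most of the 12 tests to reach it together. A single pair could therefore not pass, however far apart its groups were, and not passing says little about a pair. *Itgb5* stood 2.33 ± 0.49 below *Itgb1* on the log2 CPM scale (SD, n = 4) in 2D and 1.34 ± 0.26 (SD, n = 4) below it in 3D, a change of 1.0 (exact permutation p = 0.0286, adjusted 0.0857). The groups barely separated, 2D replicate 2 and 3D replicate 1 both being at -1.63. *Itgav* minus *Itgb5* was 0.32, -0.13, 0.62 and -0.09 in 2D and -0.99, -0.90, -1.25 and -1.25 in 3D. The alpha chain lay close to or above its partner in the 2D samples and below it in every 3D sample, a change of -1.28 (exact permutation p = 0.0286, adjusted 0.0857).

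*Cd44* minus *Itgb1* was -0.53, -0.55, -0.61 and -0.44 in 2D and -0.97, -0.66, -1.09 and -1.32 in 3D, a change of -0.48 (exact permutation p = 0.0286, adjusted 0.0857). These 2 receptors lay within a narrow band of each other in the 2D samples. *Itga3* minus *Itga6*, which compares the laminin-binding chains, was 0.74, 1.33 and 1.97 in the external and -0.15, 0.21, 0.11 and 0.27 in the internal samples, a change of -1.23 (exact permutation p = 0.0286, adjusted 0.0857). In cultures the same pair differed by 0.02 between the groups (exact permutation p = 1). The other 7 exact permutation tests gave unadjusted p-values of 0.0571 to 0.8.

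**Figure D5:**
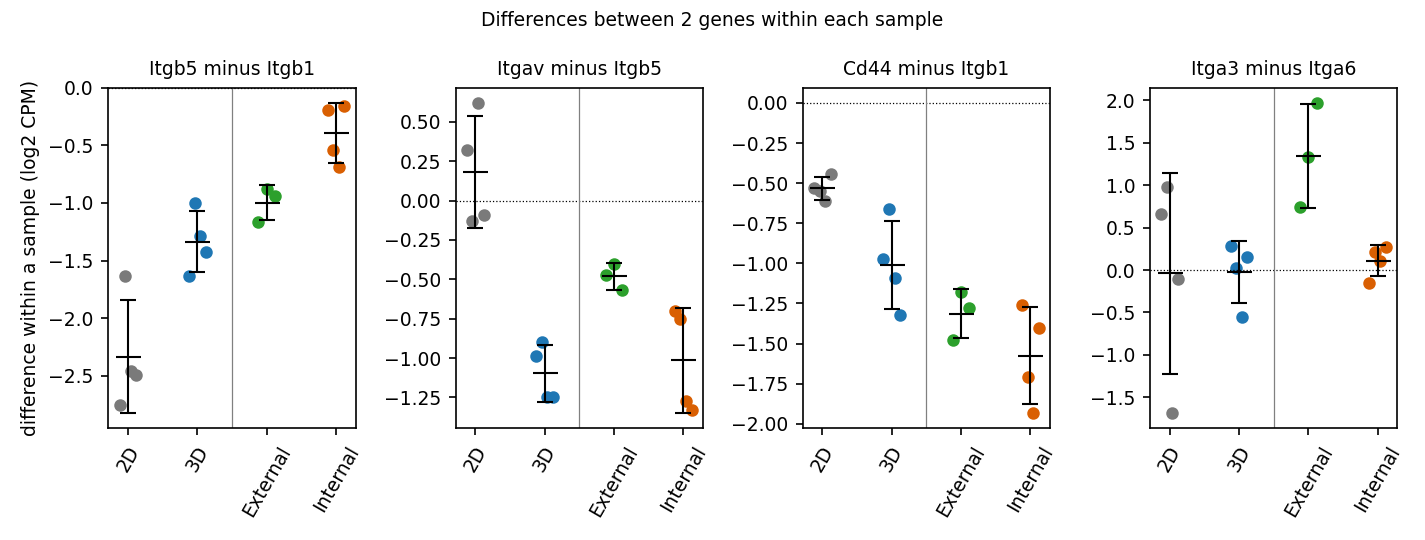
Difference between 2 genes within each sample (log2 CPM) for 4 of the 6 pairs, with the mean and SD of each group (n = 4, and 3 for external). The vertical line separates the tables of cultures and regions. *Itgav* minus *Itgb5* runs from -0.13 to 0.62 in 2D and from -1.25 to -0.90 in 3D.

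Of 19 other integrin subunits, 12 were matched in cultures, where 4 passed higher and 0 lower, and 11 in regions, where 3 passed higher and 1 lower. The medians of their log2 fold changes were 0.88 and 0.26, beside -0.03 and 0.04 over all genes. For this list and those below, the shares of all genes that passed are the measure: 9.74% higher and 9.25% lower in 3D, and 9.58% and 12.1% in the internal region. Called in 3D were *Itga11*, a collagen receptor chain, with 30 to 65 reads per library in 3D and 2 to 13 in 2D (log2 fold change 2.62, SE 0.47, limma adjusted p = 0.00489), and *Itgb3*, the other classical partner of αv, with 32 to 56 and 5 to 16 reads (2.11, SE 0.39, adjusted p = 0.00585). *Itgb3* remained far below *Itgb5*, at 2.49 ± 0.34 against 8.05 ± 0.17 log2 CPM in 3D (SD, n = 4). Called in regions were *Itga8*, which pairs with β1 in an RGD receptor for osteopontin, higher in the internal region (1.23, SE 0.30, adjusted p = 0.00437), *Itga10* lower (-1.57, SE 0.36, adjusted p = 0.00285), and *Itga2* with 8 to 78 reads in internal and 0 to 3 in external libraries.

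Of 18 matrix ligands of integrins 15 were matched in both tables. In 3D 6 passed higher and 1 lower, beside 9.74% and 9.25% of all genes. The median log2 fold change was 0.51, beside -0.03 over all genes. In the internal region 6 passed higher and 3 lower, beside 9.58% and 12.1% of all genes, and the median was 0.35, beside 0.04. The 4 called in 3D were *Postn* (periostin, log2 fold change 4.19, SE 0.56), *Edil3* (2.50, SE 0.30), *Tgfbi* (1.90, SE 0.19) and *Emilin1* (1.43, SE 0.16), all ligands of αv or β1 integrins, with adjusted p-values of 0.000513 to 0.00146 in limma. *Postn*, *Edil3* and *Emilin1* were called higher in the internal region as well, by 2.73, 1.24 and 1.36, while *Tnc* (-1.14) and *Ccn1* (-2.19) were called lower there. *Postn* also stands among the fibroblast markers.

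Of 12 genes of the osteopontin family and its processing 5 were matched, and 1 passed in each comparison. This was *Tgm2*, transglutaminase 2, an enzyme that crosslinks osteopontin. It differed by 1.93 in 3D (log2 fold change, SE 0.32, adjusted p = 0.00377 in limma) and by 1.38 in the internal region (SE 0.46, adjusted p = 0.0343). *Mmp3* and *Mmp9*, proteases that cut osteopontin, did not pass, at 0.31 and 1.79 in 3D and 0.75 and -1.07 in the internal region.

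Of 21 genes around CD44 and hyaluronan, 14 were matched in cultures, where 2 passed higher and 2 lower (median 0.20), and 13 in regions, where 3 passed higher and 3 lower (median -0.14). *Hmmr*, a hyaluronan-binding protein of the mitotic spindle, was called lower in 3D (-1.65, SE 0.33, limma adjusted p = 0.00820) and in the internal region (-3.08, SE 0.61, adjusted p = 0.000630), where *Cemip*, which breaks down hyaluronan, was called higher (1.52, SE 0.24, adjusted p = 7.09e-05).

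Inside the cell, 36 of 39 adhesion complex genes were matched. In 3D 1 passed higher and 4 lower, none called, with a median of -0.11. Of all genes 9.74% passed higher and 9.25% lower with a median of -0.03, so those lower were near the share over all genes. In the internal region 4 passed higher and 7 lower, beside 9.58% and 12.1% of all genes, with a median of -0.10, beside 0.04. There *Flna*, filamin A, was called lower (-1.23, SE 0.15, limma adjusted p = 1.93e-06) and *Tns2* higher (1.98, SE 0.35, adjusted p = 0.000179). *Flna*, *Tln1* (talin) and *Parva* passed lower and *Kank2* passed higher in both comparisons, *Flna* being at -0.68 in 3D (adjusted p = 0.0337) and *Tln1* at -0.50 and -0.45. All 14 lateral partners of integrins were matched. In 3D 5 passed higher and 1 lower (median 0.35) and in the internal region 3 higher and 5 lower (median 0.03). The urokinase receptor *Plaur* was called lower in both, at -1.11 in 3D (SE 0.16, limma adjusted p = 0.00174) and -2.52 in the internal region (SE 0.27, adjusted p = 5.03e-07), and the tetraspanin *Cd82* was called higher in 3D (1.05, SE 0.21, adjusted p = 0.00749).

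The genes whose pattern lay closest to that of *Spp1* were found by the root mean square difference of log2 CPM, each gene centred on its mean within a table, over all 15 samples. The search covered 6496 genes whose mean level reached 4 log2 CPM in each table. They were *Itm2c* (0.24), *B2m* (0.30), *Casp12* (0.31), *Grem1* (0.33) and *Pld3* (0.33), where the median gene was at 0.83 and *Spp1* itself varied by 0.76 about its own means. Their log2 fold changes were 1.51 to 2.03 in 3D and 0.36 to 0.81 in the internal region. No integrin chain was among them.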

How the data were processed

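RNA of 21EM15 cells was sequenced from the 3′ end (QuantSeq, strand-specific), and 15 samples are analysed here. The authors had set aside a further external sample that lay apart in a principal component analysis, which is not analysed here. Per the study's methods, the authors trimmed reads, aligned them with STAR 2.7.8a to GRCm38.p6, kept unique sense reads, counted genes with featureCounts 1.6.0 and kept genes above 0.2 CPM. The deposited values are log2 CPM with a prior count averaging 2 reads, in 2 tables normalised separately by the authors. Whole reads were recovered from the spacing of the log2 values (100.0% within 0.05 of a whole number), and these gave the depths. At this depth 3 reads correspond to 0.248 to 0.802 CPM, which covers counting error only.

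Groups came from the sample titles. All genes of a table were fitted with limma 3.58.1 (R 4.3.3; variance trend, two-sided, Benjamini-Hochberg), after a test on simulated data. Within-sample differences used exact permutation tests. The genes, lists and tests were chosen with earlier results of these data known. All members are named, and up to 4 called genes per list and comparison, others by their counts. List genes named without being called were chosen after their values were seen. The authors' own comparison columns (fold changes and p-values) were not used. Unique mapping leaves out reads shared with copies. A 50-base stretch in the last 300 bases of a transcript is shared by *Itgb5* with 1 other gene and by *Itga6* with 8. *Spp1* shares one with 1 gene model that overlaps it on the same strand and does not reach its 3′ end, which is not a copy elsewhere. Alternatives varied the variance prior, filter, scaling, pseudocount, replicate block and samples.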

Additional observations from a re-analysis of the deposited data

How the results depend on the processing

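*Spp1* and *Itgb5* in 3D and *Itga3* in the internal region kept their direction and passed in every alternative fit (16 and 14 fits). Members called in 3D numbered 0 to 2 and members passing 2 to 3 when a sample was left out, while the calls over all genes ranged from 161 to 770 and the genes passing from 1147 to 2834. With a replicate block 3 members passed in 3D, *Itga3* being added (adjusted p = 0.0344), while the genes passing went from 2217 to 2680. In regions the members passing fell from 2 to 1 with the block, and to 1 without a variance trend, *Itgb5* being lost. The block there also drops internal replicate 4, which has no external sample of its number, so the block is not the only change. Without internal replicate 4 alone 2 members passed. Without the trend 0 members were called, *Itga3* having an adjusted p of 0.0114. Over all genes in regions, 2453 passed, 1783 with the block and 1488 without the trend, and 861, 655 and 324 were called. Leaving out internal replicate 4 alone, 2127 passed and 774 were called. Same-numbered samples deviated together by correlations of 0.005 to 0.503 in cultures and -0.065 to -0.044 in regions, so the numbers were not taken to pair the samples. *Spp1* in the internal region ranged from 0.07 to 0.65 with a sample left out. *Itgav* changed sign in 3D (-0.17 to 0.03 with a sample left out) and in the internal region (-0.15 to 0.02 with a sample left out). In the internal region it was at 0.05 scaled to plain library totals. With the block it was at 0.00092, the same value as without internal replicate 4 alone. With a sample left out, the within-sample differences *Itga6* minus *Itga5* (-0.34 to 0.16) and *Itga3* minus *Itga6* (-0.53 to 0.36) in cultures and *Itgav* minus *Itgb1* (-0.10 to 0.26) in regions changed sign too. The cause was not tested. Scaling to plain library totals moved the median of all genes in regions from 0.04 to 0.15. Without both samples numbered 2, which deviated together most and were left out after seeing the data, *Spp1* was at 1.81 and *Itgb5* at 1.29 in 3D. With the block the exact tests cannot go below 0.125 in cultures and 0.25 in regions.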
